A study of Mus musculus with 15 samples.

Results

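Nucleolar ribosome biogenesis factors were followed through leukemia stem cells (LSC) of 4 tissues and through their normal counterparts. The members are 35 genes chosen by name for their known role in making ribosomes, with earlier results of these data known. They come out of 23359 genes in the deposited tables, and all 35 were found. The LSC came from mice with blast crisis chronic myeloid leukemia (bcCML), modelled by expressing the human oncogenes BCR-ABL and NUP98-HOXA9 together, and were taken 12 days after leukemia cells were transplanted into recipients. LSC of gonadal adipose tissue (AT), peripheral blood (BL), spleen (SPL) and bone marrow (BM) were compared with each other and with cells of normal bone marrow (NBM), in 15 libraries, 3 in each of 5 groups, all labelled female and 3 months old. The labels give the same model as the strain of the NBM samples, name no promoter or vector for the oncogenes and state no gate by which LSC or their counterparts were sorted. The design compares gene expression between LSC of different tissues, and between LSC and the normal counterparts.

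Ribosomes are assembled in the nucleolus. RNA polymerase I transcribes the long precursor of the ribosomal RNAs, small nucleolar ribonucleoproteins (snoRNPs) guide its chemical modification and early cleavage, and a large set of assembly factors, helicases and GTPases folds it together with ribosomal proteins into the small and the large subunit. Growing and dividing cells make many ribosomes, and the transcription factor MYC is known to drive many of the genes described here.

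All levels are the authors' FPKM (fragments scaled by gene length and by library depth), of which 1 pooled value per group was deposited, so the spread between libraries is seen only through the authors' lower and upper bounds and their test. Each fold is a log2 ratio with the group named first on top. A gene counts as called where it was tested and its q in the authors' deposited table is below 0.05. Genes said to have fallen or risen were called lower or higher, and genes not called may still have folds in that direction. The ± beside a fold is the standard error implied by the authors' test statistic. The pooled columns held between 8.96e+06 estimated counts in SPL and 1.96e+07 in AT, and the least covered member in each group, Gar1, still had 21.8 in AT, 18.1 in BL, 12.8 in SPL, 34.01 in BM and 30.4 in NBM. The sources used here do not say whether the libraries stand for different mice, so the p-values may measure technical spread alone. In these bulk libraries, fewer cells that express a gene and less RNA per cell cannot be told apart.

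The members largely shared an order of levels across the groups. AT and BL were both below SPL, BM and NBM in 35 of 35 members, BL was the lowest group in 34 and SPL the highest in 33. Between the marrow groups the order was mixed, with 21 members higher and 14 lower in BM than in NBM. The upper bound in BL lay under the lower bound in BM for 32 members, and that in AT did so for 18, whereas the bounds of AT and BL overlapped in every member, as did those of SPL and BM. These counts of order and bounds were not made over all genes. Against BM LSC, the median fold of all tested genes was itself -0.48 in AT, -0.37 in BL and 0.12 in SPL. The median member stood at 5.49 FPKM in AT, 3.70 in BL, 17.1 in SPL, 12.7 in BM and 12.0 in NBM. Together the members took 0.389% of the estimated counts in AT, 0.208% in BL, 0.901% in SPL, 0.745% in BM and 0.746% in NBM. Comparing these shares between groups amounts to scaling the groups to equal total counts. Without Npm1, the most abundant member, the shares were 0.312% in AT, 0.172% in BL, 0.698% in SPL, 0.586% in BM and 0.601% in NBM. These shares still hold Ncl, another large part of the counts. Ncl had 14724 estimated counts in AT and 14667 in SPL, beside 15087 in AT and 18184 in SPL for Npm1. The highest group exceeded the lowest by a factor between 2.49 for Gar1 and 8.53 for Gnl3, with a median of 4.11.

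**Figure D1:**
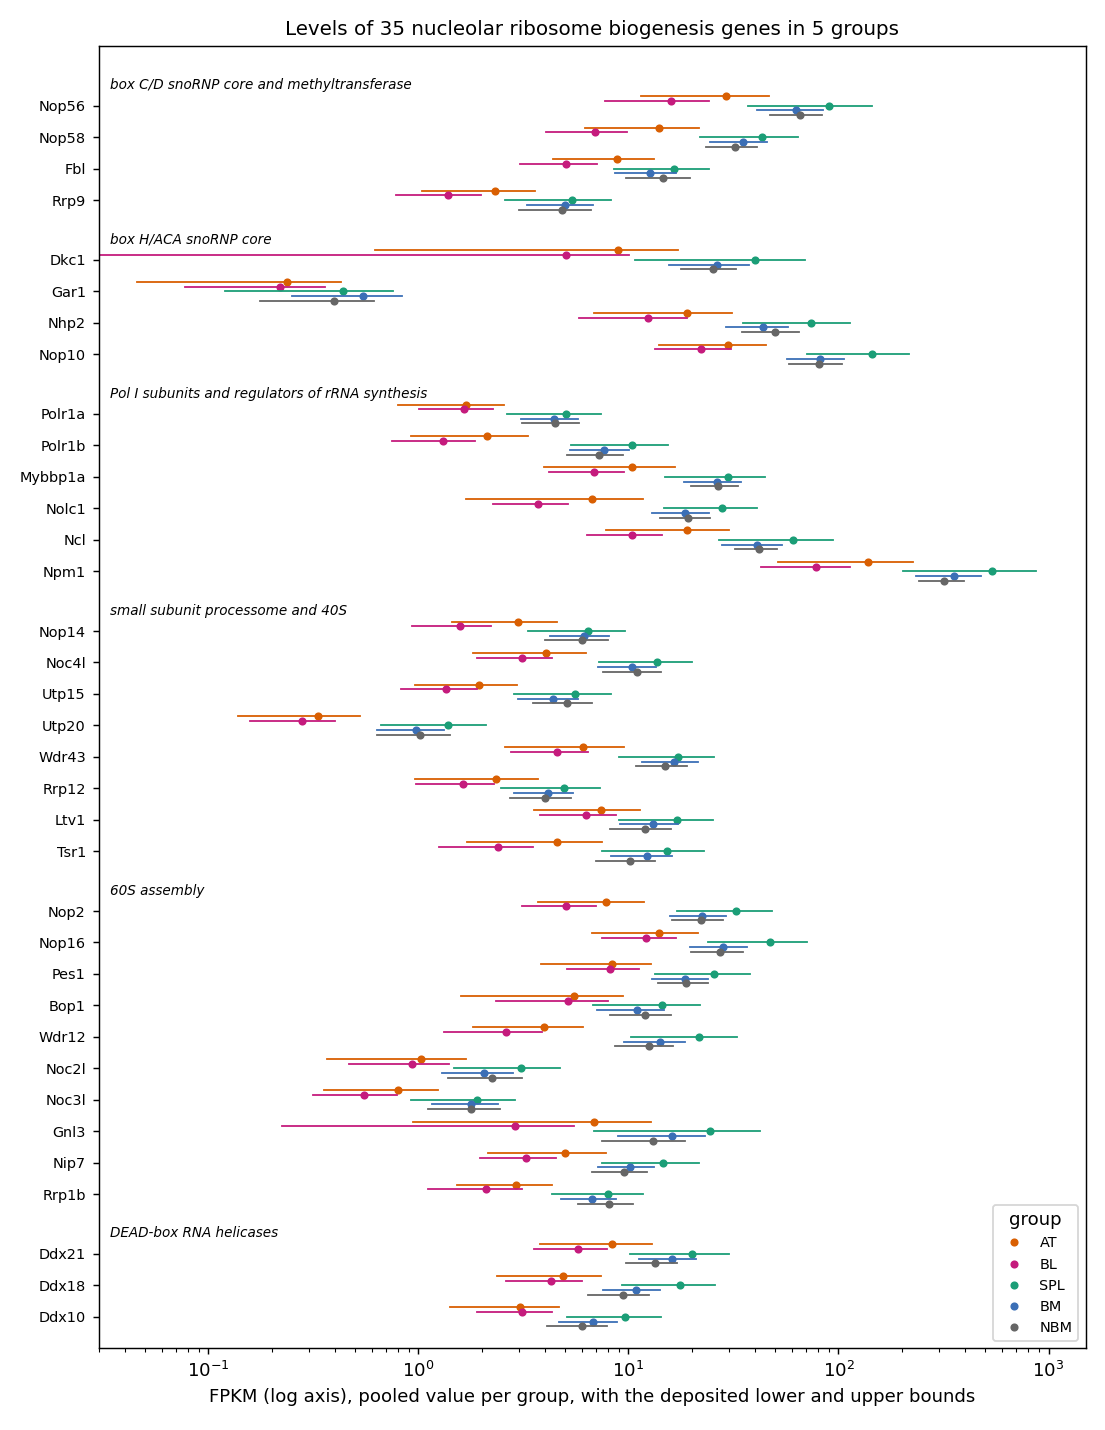
Level of each member in each group, grouped by role. Points are pooled FPKM on a log axis, bars run between the deposited lower and upper bounds (a bound below 0.03 is drawn at the axis edge), and AT and BL lie to the left of SPL, BM and NBM in 35 of 35 genes.

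Box C/D snoRNPs place methyl groups on the ribose of ribosomal RNA. Nop56, a core protein of these particles, stood at 29.1 FPKM in AT, 15.9 in BL, 90.3 in SPL, 62.4 in BM and 65.3 in NBM. Its paralog and partner Nop58 stood at 13.96 FPKM in AT, 6.96 in BL, 43.1 in SPL, 34.9 in BM and 32.2 in NBM. For both, BL was lowest and SPL highest, and the normal and leukemic marrow cells differed by less than the width of their bounds. Fbl, which encodes the methyltransferase fibrillarin, reached 8.81 FPKM in AT, 5.05 in BL, 16.4 in SPL, 12.7 in BM and 14.7 in NBM. Rrp9, a protein of the snoRNP that directs the first cleavages of the precursor, was at 2.31 FPKM in AT, 1.39 in BL, 5.39 in SPL, 5.01 in BM and 4.82 in NBM. In BL against BM LSC all 4 fell in the authors' deposited table, where 22.8% of all tested genes were called lower. In AT against BM LSC 1 of the 4, Nop58, was called lower in the authors' deposited table, where 15.5% of all tested genes were.

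Nop56 and Nop58 also carry small nucleolar RNAs (snoRNAs) in their own gene bodies. In the GENCODE M21 annotation (GRCm38), 7 of 35 members (20.0%) held at least 1 snoRNA gene on their own strand, namely Nop56, Nop58, Dkc1, Ncl, Wdr43, Tsr1 and Gnl3, with 21 snoRNA genes in all. Among the protein-coding genes tested in AT against BM LSC, 184 of 11658 did (1.58%). The share is a description of the annotation, and the snoRNAs themselves were not analysed here. A snoRNA of each host is shown, 5′ to 3′, because Nop56 and Nop58 proteins bind box C/D RNAs. They were picked because they hold the exact letters of the C box, which Snord57 in Nop56 and Snord70 in Nop58 do not. Capitals mark the letters TGATGA, which match the C box, and the last CTGA, which matches the D box.
Snord110, within Nop56, chr2:130275506-130275573, plus strand: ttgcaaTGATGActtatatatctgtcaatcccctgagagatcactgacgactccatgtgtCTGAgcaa
Snord11, within Nop58, chr1:59704790-59704873, plus strand: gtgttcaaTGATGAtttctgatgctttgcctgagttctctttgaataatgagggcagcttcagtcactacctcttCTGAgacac

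Box H/ACA snoRNPs convert uridines of ribosomal RNA to pseudouridine, and their core is also part of telomerase. Dkc1, which encodes the pseudouridine synthase dyskerin, stood at 8.95 FPKM in AT, 5.01 in BL, 39.96 in SPL, 26.5 in BM and 25.2 in NBM. Its bounds were among the widest of the members, in BL between 0 and 10.1 FPKM. Nhp2, an RNA-binding partner of dyskerin, was at 18.9 FPKM in AT, 12.4 in BL, 74.02 in SPL, 43.5 in BM and 49.95 in NBM. Nop10, the smallest partner, was at 29.7 FPKM in AT, 22.03 in BL, 144 in SPL, 81.8 in BM and 80.8 in NBM, after Npm1 the most abundant member. Gar1, the remaining core protein, was listed at only 0.236 FPKM in AT, 0.218 in BL, 0.437 in SPL, 0.544 in BM and 0.396 in NBM, and it was the only member called in none of the 10 comparisons. Only Nop10 of this core was called lower in AT against BM LSC in the authors' deposited table, where 15.5% of all tested genes were. The folds of Dkc1, Nhp2 and Gar1 there were below 0 as well. In BL against BM LSC, Nop10, Nhp2 and Dkc1 were called lower in the authors' deposited table, where 22.8% of all tested genes were.

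Genes of ribosomal RNA synthesis held some of the widest gaps. Polr1b, one of the large catalytic subunits of RNA polymerase I, stood at 2.12 FPKM in AT, 1.30 in BL, 10.3 in SPL, 7.66 in BM and 7.23 in NBM. In AT its bounds ran from 0.922 to 3.32 FPKM and in BM from 5.28 to 10.03 FPKM, so the groups did not overlap. The other large subunit, Polr1a, was at 1.68 FPKM in AT, 1.64 in BL, 5.03 in SPL, 4.41 in BM and 4.48 in NBM. Mybbp1a, a nucleolar MYB-binding protein, was at 10.3 FPKM in AT, 6.87 in BL, 29.7 in SPL, 26.5 in BM and 26.6 in NBM, and Nolc1, a chaperone of snoRNPs, at 6.70 FPKM in AT, 3.70 in BL, 27.8 in SPL, 18.6 in BM and 19.3 in NBM. Ncl encodes nucleolin, an abundant RNA-binding protein of the nucleolus, and had 18.9 FPKM in AT, 10.4 in BL, 60.5 in SPL, 40.8 in BM and 41.6 in NBM. Npm1, which encodes the chaperone nucleophosmin, had 139 FPKM in AT, 78.2 in BL, 536 in SPL, 355 in BM and 319 in NBM. Npm1 was not tested in any comparison with SPL, where the authors' deposited table lists a fold of 0 as a placeholder, so its 536 FPKM in SPL is a level with no test. All 6 genes fell in BL against BM LSC and 4 of 6 in AT against BM LSC in the authors' deposited table, where 22.8% of all tested genes were called lower against BM in BL and 15.5% in AT. In AT against BM LSC, the authors' deposited table gave Nolc1 at -1.47 ± 0.58 (q 0.0531) and Ncl at -1.11 ± 0.48 (q 0.0838), which were not called.

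The small subunit matures in a large particle called the processome, described best in yeast. Nop14 and Noc4l are partners within it. Nop14 stood at 2.99 FPKM in AT, 1.57 in BL, 6.45 in SPL, 6.14 in BM and 5.998 in NBM, and Noc4l at 4.03 FPKM in AT, 3.11 in BL, 13.6 in SPL, 10.3 in BM and 10.9 in NBM. Utp15, a processome protein first defined in yeast, was at 1.95 FPKM in AT, 1.36 in BL, 5.56 in SPL, 4.36 in BM and 5.11 in NBM. Utp20, likewise known from yeast, was at 0.333 FPKM in AT, 0.279 in BL, 1.38 in SPL, 0.978 in BM and 1.02 in NBM. Wdr43, a further processome component, had 6.06 FPKM in AT, 4.58 in BL, 17.2 in SPL, 16.5 in BM and 14.99 in NBM. These 5 genes followed the common order, with BL lowest, AT next and SPL highest in each. Rrp12, which in yeast helps to export the small subunit, was at 2.35 FPKM in AT, 1.63 in BL, 4.91 in SPL, 4.13 in BM and 4.02 in NBM. Ltv1 and Tsr1 act late, in the cytoplasm. Ltv1 had 7.43 FPKM in AT, 6.25 in BL, 17.1 in SPL, 13.1 in BM and 12.04 in NBM, and Tsr1 had 4.58 FPKM in AT, 2.38 in BL, 15.2 in SPL, 12.2 in BM and 10.2 in NBM. All 8 fell in BL against BM LSC and 5, Noc4l, Utp15, Utp20, Wdr43 and Tsr1, also in AT against BM LSC in the authors' deposited table, where 22.8% of all tested genes were called lower against BM in BL and 15.5% in AT.

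The large-subunit factors include the complex of Pes1, Bop1 and Wdr12, which is needed for processing of the precursor. Wdr12 had 3.95 FPKM in AT, 2.61 in BL, 21.6 in SPL, 14.1 in BM and 12.5 in NBM, one of the largest spans of the members. Its partners spanned less: Pes1 was at 8.35 FPKM in AT, 8.17 in BL, 25.6 in SPL, 18.5 in BM and 18.9 in NBM, and Bop1 at 5.49 FPKM in AT, 5.15 in BL, 14.4 in SPL, 10.9 in BM and 12.03 in NBM. Pes1 and Wdr12 fell in AT and in BL against BM LSC in the authors' deposited table, and Bop1 was called in neither; 22.8% of all tested genes were called lower in BL and 15.5% in AT. Nop2, a methyltransferase of the large-subunit RNA, stood at 7.78 FPKM in AT, 5.07 in BL, 32.6 in SPL, 22.4 in BM and 22.2 in NBM. Nop16 was at 14.03 FPKM in AT, 12.2 in BL, 47.3 in SPL, 28.1 in BM and 27.4 in NBM. Gnl3 encodes nucleostemin, a GTPase known from stem and cancer cells, and had 6.86 FPKM in AT, 2.87 in BL, 24.5 in SPL, 16.1 in BM and 13.03 in NBM. Its bounds in AT, 0.938 to 12.8 FPKM, overlapped those in BM, 8.92 to 23.3 FPKM. Nip7, a large-subunit factor known from yeast, was at 4.98 FPKM in AT, 3.24 in BL, 14.6 in SPL, 10.2 in BM and 9.52 in NBM. Rrp1b was at 2.93 FPKM in AT, 2.11 in BL, 8.001 in SPL, 6.73 in BM and 8.10 in NBM, the only member highest in NBM. Noc2l and Noc3l, partners of a complex described in yeast, were low, with 1.02 FPKM in AT, 0.935 in BL, 3.09 in SPL, 2.05 in BM and 2.24 in NBM for Noc2l, and 0.799 FPKM in AT, 0.553 in BL, 1.89 in SPL, 1.78 in BM and 1.77 in NBM for Noc3l.

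The DEAD-box RNA helicases remodel the precursor as it folds. Ddx21 stood at 8.37 FPKM in AT, 5.74 in BL, 20.1 in SPL, 16.1 in BM and 13.4 in NBM, and Ddx18 at 4.86 FPKM in AT, 4.29 in BL, 17.6 in SPL, 10.8 in BM and 9.46 in NBM. Ddx10 had 3.04 FPKM in AT, 3.10 in BL, 9.65 in SPL, 6.75 in BM and 6.0 in NBM, the only member that was lowest in AT, although AT and BL were almost level. All 3 helicases fell in BL against BM LSC and Ddx18 and Ddx10 in AT against BM LSC in the authors' deposited table, where 22.8% of all tested genes were called lower against BM in BL and 15.5% in AT.

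Circulating LSC carried less of nearly every member than marrow LSC. In BL against BM LSC, 32 of 35 members fell and none rose in the authors' deposited table, where 22.8% of all 12784 tested genes were called lower and 10.5% higher. The median fold was -1.81 for the members and -0.37 for all tested genes. In the authors' deposited table the largest drops were Polr1b at -2.56 ± 0.38 (q 1.40e-09), Gnl3 at -2.49 ± 0.74 (q 0.00638) and Wdr12 at -2.43 ± 0.42 (q 4.48e-07). These are a polymerase subunit, a GTPase and a scaffold of large-subunit assembly. They were followed by Dkc1 at -2.40 ± 0.79 (q 0.0152), Tsr1 at -2.36 ± 0.41 (q 5.13e-07) and Nolc1 at -2.33 ± 0.36 (q 4.39e-09) in the authors' deposited table. The members not called were Gar1 at -1.32 ± 0.61, Bop1 at -1.09 ± 0.47 and Noc2l at -1.13 ± 0.45, with q of 0.11, 0.0832 and 0.0527 there. When folds were centred on the median of all tested genes, 27 of 35 members were called lower, against 13.5% of all tested genes, and Dkc1 was no longer called. The median of all genes moved by 0.37 (log2) with that centring.

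Adipose LSC took a middle place, and their calls depended on the scaling. In AT against BM LSC, 17 of 35 members fell and none rose in the authors' deposited table, where 15.5% of all 13160 tested genes were called lower and 7.24% higher. The median fold was -1.20 for the members and -0.48 for all tested genes, and 35 of 35 members lay below that of all genes. Polr1b at -1.85 ± 0.46 (q 0.000866) and Wdr12 at -1.83 ± 0.46 (q 0.000761) led in the authors' deposited table. Utp20 at -1.56 ± 0.49 (q 0.0111), Nop2 at -1.53 ± 0.43 (q 0.00404), Nop10 at -1.46 ± 0.44 (q 0.00713) and Wdr43 at -1.45 ± 0.47 (q 0.0133) were the next largest among those called in the authors' deposited table. Dkc1 had a like fold, -1.57 ± 0.73, with wider error, and was not called there (q 0.117). After centring on the median of all tested genes, 2 of 35 members were called lower, against 5.11% of all tested genes, and these were Polr1b and Wdr12. These 2 are 5.71% of the members, a share near that background. Scaling to equal total counts left 4, adding Nop2 and Nop10, against 7.52% of all tested genes, and scaling to an equal upper quartile left 2, against 5.22%. The direction stayed below 0 in 35 of 35 members under each of these scalings.

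AT and BL LSC were not separated by any single member. In AT against BL LSC, 0 of 35 members were called in the authors' deposited table, where 6.52% of 13042 tested genes were. Unadjusted p was below 0.05 for 2 members, and 5 had such a p under total count scaling. The fold was above 0 in 34 of 35 members, and in 35 of 35 under each other scaling, with a median of 0.54 against -0.11 for all tested genes. The largest were Gnl3 at 1.25 ± 0.91 (q 0.378) and Nop58 at 1.00 ± 0.50 (q 0.15) in the authors' deposited table. No single fold passed the adjustment, so a difference between AT and BL was not detectable gene by gene at this depth and spread.

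**Figure D2:**
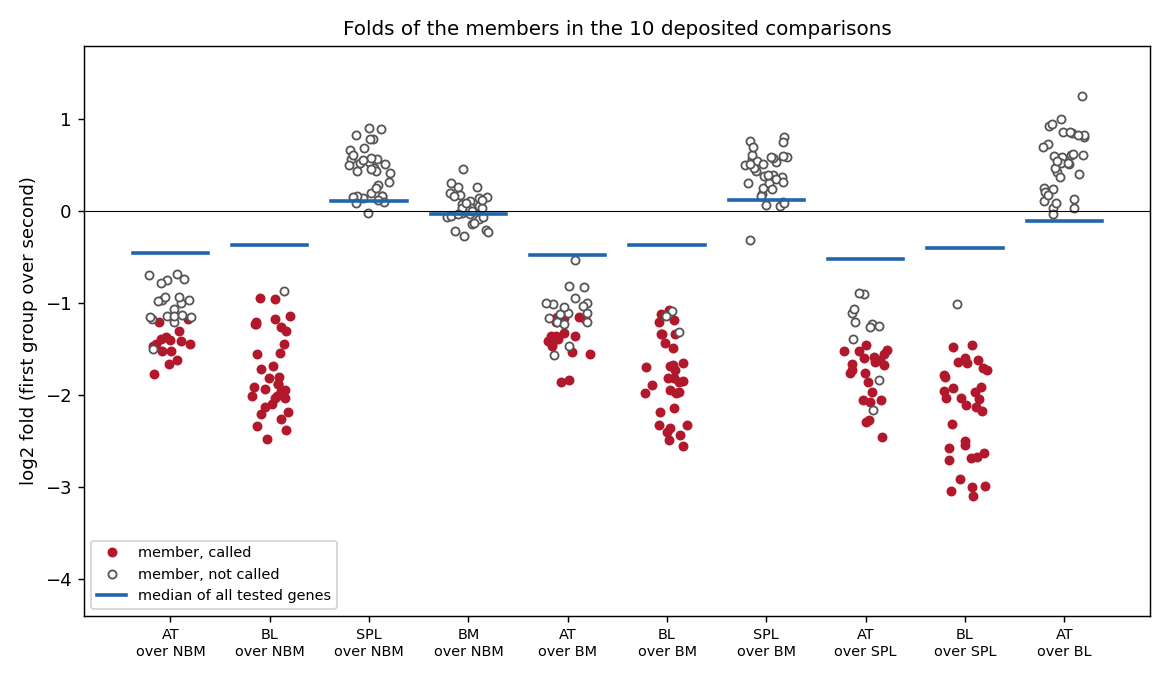
Folds of the members in the 10 comparisons, as log2 ratios with the first-named group on top. Filled points were called in the authors' tables, open points were not, and the blue line is the median of all tested genes. The members lie below the line in comparisons of AT or BL with NBM, BM or SPL, and above 0 in 34 of 35 cases for AT over BL.

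Spleen LSC had the highest levels without a called difference from marrow. In SPL against BM LSC, 0 of 34 tested members were called in the authors' deposited table, where 2.69% of 12040 tested genes were, and 0 of 34 had an unadjusted p below 0.05. The median fold was 0.42 for the members and 0.12 for all tested genes. The highest folds were Nop10 at 0.81 ± 0.43 (q 0.174) and Nhp2 at 0.77 ± 0.45 (q 0.237), both of the H/ACA core, in the authors' deposited table. Gar1 of the same core was the only member below 0 on the authors' scale (4 to 7 members were under other scalings), at -0.31 ± 0.65 (q 0.823) in the authors' deposited table.

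No member separated leukemic from normal marrow cells. In BM LSC against NBM, 0 of 35 members were called in the authors' deposited table, where 16.0% of 12823 tested genes were, and 0 of 35 had an unadjusted p below 0.05. Folds ran from -0.27 for Rrp1b to 0.46 for Gar1, with a median of 0.03 for the members and -0.03 for all tested genes. The sign of that small median turned under equal total counts (-0.020) and equal upper quartile scaling (-0.0063). The median standard error of the members was 0.32. The smallest called fold among all tested genes was 0.72 in size, so smaller changes were not detectable gene by gene.

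Against normal marrow cells, BL and AT LSC were low in these genes as well. In BL LSC against NBM, 34 of 35 members fell in the authors' deposited table, where 22.9% of 13020 tested genes were called lower, with a median of -1.87 against -0.36. Polr1b at -2.47 ± 0.37 (q 2.96e-09), Nolc1 at -2.38 ± 0.34 (q 3.04e-10) and Dkc1 at -2.33 ± 0.76 (q 0.0146) led in the authors' deposited table. After centring, 23 members were still called lower, against 14.0% of all tested genes, and Dkc1 was not. In AT LSC against NBM, 15 of 35 members fell in the authors' deposited table, where 15.5% of 13346 tested genes were called lower, with a median of -1.17 against -0.46. Polr1b at -1.77 ± 0.46 (q 0.0014), Wdr12 at -1.66 ± 0.45 (q 0.00239) and Utp20 at -1.62 ± 0.50 (q 0.00927) led in the authors' deposited table. Of these only Polr1b and Wdr12 were called after centring, which left 2 members, against 6.56% of all tested genes. In SPL LSC against NBM, 0 of 34 tested members were called in the authors' deposited table, where 12.6% of 12498 tested genes were. There 2 had an unadjusted p below 0.05, and the median was 0.47 against 0.11 for all tested genes. These comparisons share the NBM libraries.

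Against spleen LSC the gaps were widest. In BL against SPL LSC, 33 of 34 tested members fell in the authors' deposited table, where 23.1% of 12370 tested genes were called lower, with a median of -2.04 against -0.40. Gnl3 at -3.09 ± 0.84 (q 0.00257), Wdr12 at -3.05 ± 0.52 (q 1.84e-07) and Dkc1 at -2.99 ± 0.90 (q 0.00718) led in the authors' deposited table. Centring left 29 called lower, against 14.5% of all tested genes. In AT against SPL LSC, 23 of 34 tested members fell in the authors' deposited table, where 17.9% of 12839 tested genes were called lower, with a median of -1.62 against -0.52. Wdr12 at -2.45 ± 0.54 (q 0.00012), Polr1b at -2.29 ± 0.54 (q 0.000313) and Nop10 at -2.27 ± 0.53 (q 0.000257) led in the authors' deposited table. Centring left 6, namely these 3 with Utp20, Nop2 and Ddx18, against 6.95% of all tested genes. In both AT and BL against each of SPL, BM and NBM, 6 comparisons that share libraries, 13 of the 34 members tested in all of them were called lower (38.2%), as were 732 of 11854 genes (6.18%). After centring these were 2 of 34 members (5.88%), Polr1b and Wdr12, and 145 of 11854 genes (1.22%). The 13 on the authors' scale were Polr1a and Polr1b of the polymerase, Nop58 and Nop10 of the snoRNPs, Mybbp1a, the small-subunit genes Noc4l, Utp15, Utp20 and Wdr43, and the large-subunit genes Nop2, Pes1, Wdr12 and Rrp1b.

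**Figure D3:**
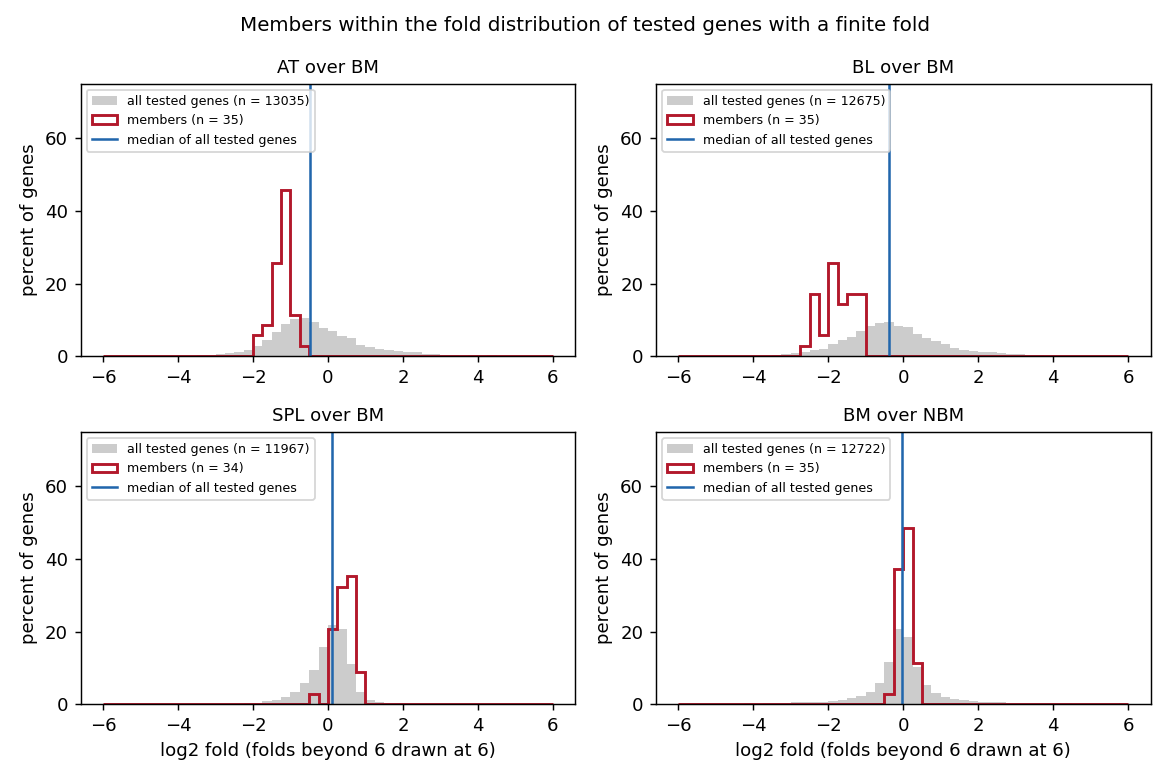
Percent of genes by log2 fold, for all tested genes with a finite fold (grey) and for the members (red outline), in 4 comparisons. The members sit left of the median of all tested genes (blue line) in AT over BM and BL over BM, mostly right of it in SPL over BM and around it in BM over NBM.

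**Figure D4:**
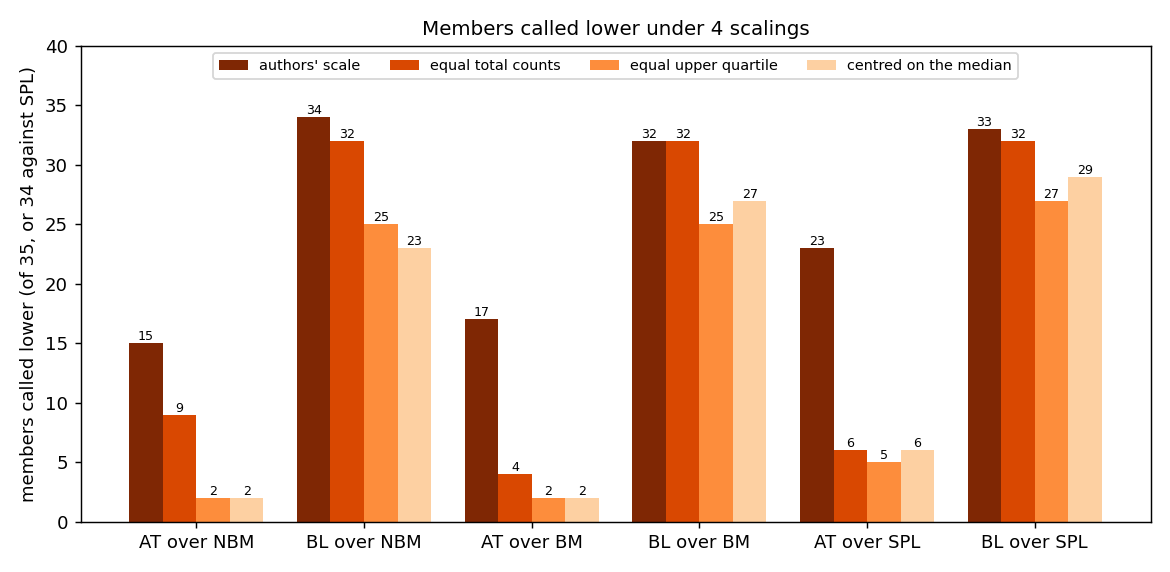
Number of members called lower under the authors' scaling and 3 others, of 35 tested or of 34 in comparisons with SPL. In BL the count stays between 23 and 34, and in AT it drops from between 15 and 23 to between 2 and 9.

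Other genes of the pathway were taken from 5 lists that hold 121 genes, all found. In BL against BM LSC, 82 of 121 fell and none rose in the authors' deposited table, beside the 22.8% of all tested genes called lower, with a median of -1.37. After centring 55 were called lower (45.5%), against 13.5% of all tested genes. Small-subunit processome genes gave 27 lower of 37, led by Wdr75 at -2.20 ± 0.38 (q 4.67e-07) and Cirh1a at -1.92 ± 0.36 (q 2.14e-06) in the authors' deposited table, both processome proteins. Large-subunit assembly and export genes gave 33 of 48, led by the assembly factor Ppan at -2.26 ± 0.40 (q 4.74e-07) and by Mki67ip, a nucleolar partner of the Ki-67 protein, at -1.99 ± 0.36 (q 1.23e-06) in the authors' deposited table. The snoRNP assembly list gave 7 of 9, led by the paired ATPases Ruvbl1 at -2.10 ± 0.35 (q 1.45e-07) and Ruvbl2 at -2.01 ± 0.36 (q 9.86e-07) in the authors' deposited table. RNA exosome genes, which trim the precursor, gave 8 of 14, and RNA polymerase I genes outside the members 7 of 13. These were led by the exosome subunits Exosc7 at -2.03 ± 0.37 (q 1.66e-06) and Exosc2 at -1.83 ± 0.36 (q 1.28e-05), by the polymerase subunit Polr1e at -1.56 ± 0.36 (q 0.000294) and by the initiation factor Rrn3 at -1.43 ± 0.35 (q 0.000708) in the authors' deposited table.

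In AT against BM LSC, 39 of the 121 genes fell and none rose in the authors' deposited table, beside 15.5% of all tested genes called lower, with a median of -1.01, and 5 were called lower after centring. Those 5 are 4.13% of the list, no larger a share than the 5.11% of all tested genes. By list these were 13 of 37 for the processome, 10 of 48 for the large subunit, 5 of 9 for snoRNP assembly, 8 of 14 for the exosome and 3 of 13 for RNA polymerase I. The processome genes Pwp2 at -2.35 ± 0.46 (q 1.01e-05) and Nat10, an RNA acetyltransferase, at -1.69 ± 0.47 (q 0.00281) led the first in the authors' deposited table. Urb2 at -2.00 ± 0.47 (q 0.000347) and the helicase Ddx56 at -1.53 ± 0.44 (q 0.00452) led the second, and the cap methylase Tgs1 at -1.43 ± 0.42 (q 0.00651) with Ruvbl1 at -1.45 ± 0.44 (q 0.00816) the third, in the authors' deposited table. Exosc7 at -1.89 ± 0.45 (q 0.000453), Exosc8 at -1.46 ± 0.44 (q 0.00805), Polr1e at -2.06 ± 0.47 (q 0.000169) and the initiation factor subunit Taf1a at -1.57 ± 0.50 (q 0.0129) led the other lists in the authors' deposited table. The 5 called after centring were Pwp2, Nat10, Urb2, Exosc7 and Polr1e.

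Against NBM, 79 of the 121 genes fell in BL LSC and 39 in AT LSC in the authors' deposited table, where 22.9% of all tested genes were called lower in BL and 15.5% in AT. Centring left 54 in BL, against 14.0% of all tested genes, and 8 in AT, against 6.56%. Against SPL LSC, 84 of 120 tested genes fell in BL and 62 of 121 in AT in the authors' deposited table, where 23.1% of all tested genes were called lower in BL and 17.9% in AT. Centring left 63 in BL, against 14.5% of all tested genes, and 17 in AT, against 6.95%. In AT against BL LSC, 2 of 121 rose, the large-subunit factor Rrs1 at 1.78 ± 0.59 (q 0.0161) and the H/ACA assembly factor Naf1 at 2.02 ± 0.76 (q 0.0413) in the authors' deposited table, beside 4.01% of all tested genes called higher. Both levels were low, at 0.867 FPKM in AT and 0.252 in BL for Rrs1 and at 0.168 in AT and 0.0414 in BL for Naf1. In BM LSC against NBM and in SPL against BM LSC, 0 of 121 were called in the authors' deposited table, where 16.0% of all tested genes were called for BM against NBM and 2.69% for SPL against BM. In SPL LSC against NBM, only Polr1e of the 121 rose, at 1.37 ± 0.43 (q 0.0105) in the authors' deposited table, beside 6.37% of all tested genes called higher.

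**Figure D5:**
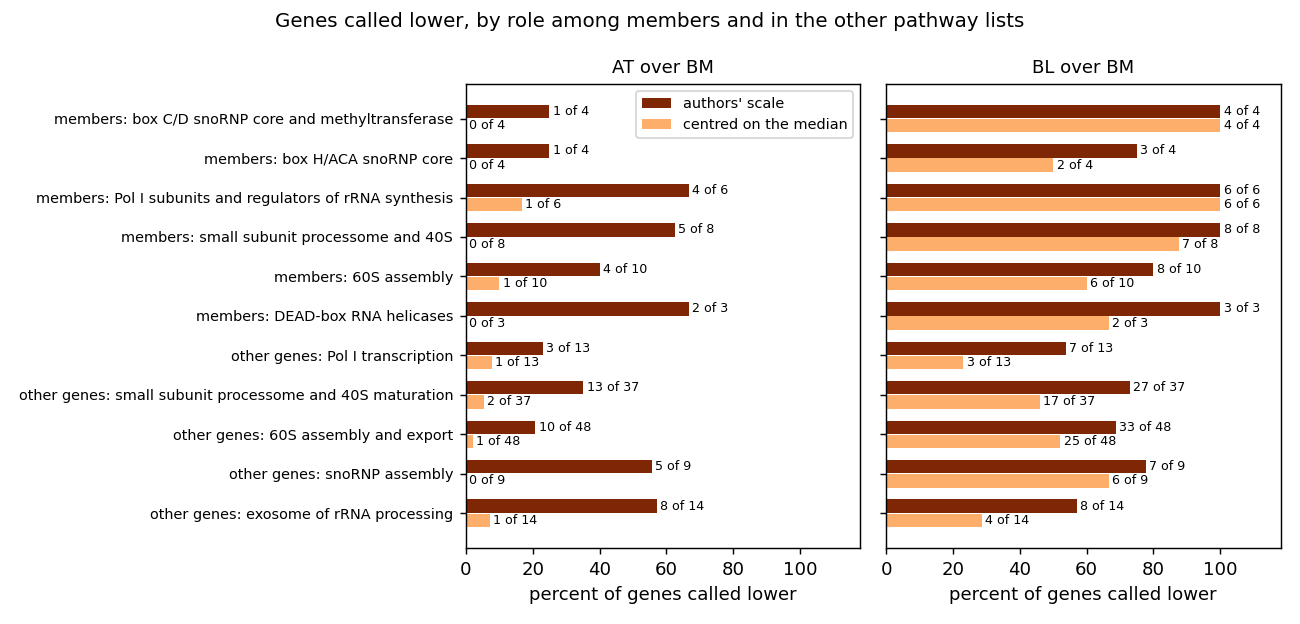
Percent of genes called lower in AT over BM and BL over BM, by role among the members and in the other pathway lists, under the authors' scaling (dark) and after centring on the median of all tested genes (light). Counts beside the bars give the genes called of those tested. After centring the bars for AT over BM shrink to at most 1 member in a role, while those for BL over BM keep at least 2 members in each.

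The start regions of the members were read from RefSeq (GRCm38.p6), which held 31 of 35, all but Fbl, Npm1, Rrp12 and Bop1, as windows from 250 bases before to 50 bases after the start. On either strand, CACGTG, the E-box that MYC and related factors bind, was in 7 of 31 member windows (22.6%) and in 11.4% of the windows of 9543 tested genes. The letters CCGGAAG, a core that ETS factors bind, were in 10 of 31 (32.3%) against 19.6% of tested genes. GGGCGG, bound by SP factors, was in 25 of 31 (80.6%) against 63.8%, and the letters TATAAA, as found in many core promoters, were in 2 of 31 (6.45%) against 9.997%. Over all 27025 genes in the table the shares were 8.09% for CACGTG, 9.93% for the ETS core, 38.2% for the SP motif and 15.7% for the last of these. Member and tested-gene windows had the same median GC content of 59.7%. The matches are letters in a window, and no test was made. Below are the windows of the 3 members with the highest mean FPKM among those in the table, Nop10, Nop56 and Nhp2, and of the 2 with the highest mean FPKM among the 7 that hold CACGTG, Mybbp1a and Nop2, of which Nop2, Mybbp1a and Nop10 were among the 13 members called in all 6 of those comparisons on the authors' scale. They are written 5′ to 3′ along the gene, and capitals mark any of the 4 motifs on either strand.
Nop10, chr2:112261676-112261975, plus strand: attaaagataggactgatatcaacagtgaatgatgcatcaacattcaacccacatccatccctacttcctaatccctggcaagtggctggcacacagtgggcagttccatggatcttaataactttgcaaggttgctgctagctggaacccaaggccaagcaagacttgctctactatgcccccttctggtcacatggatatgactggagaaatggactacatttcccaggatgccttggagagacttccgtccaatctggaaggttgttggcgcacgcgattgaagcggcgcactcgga
Nop56, chr2:130274162-130274461, plus strand: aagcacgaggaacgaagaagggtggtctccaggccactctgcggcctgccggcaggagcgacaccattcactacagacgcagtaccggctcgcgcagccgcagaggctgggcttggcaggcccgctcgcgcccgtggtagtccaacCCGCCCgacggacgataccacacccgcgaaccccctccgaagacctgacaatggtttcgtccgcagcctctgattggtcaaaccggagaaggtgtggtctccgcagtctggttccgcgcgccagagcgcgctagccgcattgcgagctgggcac
Nhp2, chr11:51619523-51619822, plus strand: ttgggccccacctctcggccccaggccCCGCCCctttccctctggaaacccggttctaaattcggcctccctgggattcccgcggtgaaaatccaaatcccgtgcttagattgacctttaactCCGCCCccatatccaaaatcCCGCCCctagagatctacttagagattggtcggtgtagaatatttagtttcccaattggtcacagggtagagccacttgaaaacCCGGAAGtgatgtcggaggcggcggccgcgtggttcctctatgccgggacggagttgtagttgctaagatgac
Mybbp1a, chr11:72441077-72441376, plus strand: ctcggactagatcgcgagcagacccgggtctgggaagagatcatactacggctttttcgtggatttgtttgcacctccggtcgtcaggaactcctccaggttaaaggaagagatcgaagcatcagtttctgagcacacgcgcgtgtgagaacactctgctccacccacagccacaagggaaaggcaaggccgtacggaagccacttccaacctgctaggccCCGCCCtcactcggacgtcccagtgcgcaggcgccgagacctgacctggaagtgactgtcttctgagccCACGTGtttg
Nop2, chr6:125131633-125131932, plus strand: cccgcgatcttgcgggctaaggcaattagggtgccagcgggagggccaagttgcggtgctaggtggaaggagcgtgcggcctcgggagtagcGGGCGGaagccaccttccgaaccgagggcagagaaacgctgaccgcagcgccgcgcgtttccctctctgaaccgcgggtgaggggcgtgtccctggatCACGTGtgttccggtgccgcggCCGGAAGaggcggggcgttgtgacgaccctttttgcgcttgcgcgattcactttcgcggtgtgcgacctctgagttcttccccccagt
Nop2 holds the E-box, the ETS core and the SP motif, Mybbp1a holds the E-box and the SP motif, Nhp2 holds the ETS core and the SP motif, Nop56 holds the SP motif alone, and Nop10 holds none of the 4.

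Cell type markers moved between the groups as well. Blood-cell genes were present in every group, with Laptm5 at 428 FPKM in AT, 645 in BL, 340 in SPL, 413 in BM and 385.6 in NBM. The 8 stem and progenitor genes summed to 22.05 FPKM in AT, 22.9 in BL, 43.8 in SPL, 61.5 in BM and 69.5 in NBM, and none of the 8 was under 0.1 FPKM in any group. Cd34 led that sum, and the other 7 summed to 13.98 FPKM in AT, 14.95 in BL, 34.2 in SPL, 37.2 in BM and 29.6 in NBM. Single genes differed from the sum: Hoxa9 was at 2.63 FPKM in AT, 2.78 in BL, 2.03 in SPL, 3.65 in BM and 0.771 in NBM, and Gata2 at 4.08 in AT, 2.39 in BL, 7.86 in SPL, 10.9 in BM and 1.78 in NBM. Flt3 was higher in BL, at 0.764 FPKM, than in SPL, at 0.522. The 8 macrophage genes in the files summed to 153 FPKM in AT, 296 in BL, 56.2 in SPL, 80.0 in BM and 101 in NBM. Of these, Emr1, Csf1r, Cd68 and Mertk were highest in BL, whereas C1qa, C1qb, C1qc and Mrc1 were highest in NBM. C1qb stood at 9.78 FPKM in AT, 16.1 in BL and 25.5 in NBM. The 6 mature neutrophil genes summed to 137 FPKM in AT, 126 in BL, 38.6 in SPL, 57.0 in BM and 94.9 in NBM. Ltf led the neutrophil sum, at 108 FPKM in AT, and the other 5 summed to 28.9 FPKM in AT, 71.2 in BL, 13.1 in SPL, 19.4 in BM and 37.3 in NBM, so AT was then below NBM. The 6 erythroid genes, mostly the globins, summed to 676 FPKM in AT, 2378 in BL, 835 in SPL, 782 in BM and 92.7 in NBM. Stromal genes reached 29.5 FPKM in AT, mainly Dcn, and 1.10 to 2.86 in the other groups. Without Dcn the other 7 summed to 8.57 FPKM in AT, 1.09 in BL, 2.34 in SPL, 2.84 in BM and 2.67 in NBM. Pdgfrb was lowest in AT, at 0.502 FPKM, against 2.21 in BM and 2.09 in NBM. Col1a2 was highest in SPL, at 1.06 FPKM, against 0.425 in AT. Adipocyte genes stayed at or below 0.344 FPKM in every group, with Adipoq listed at 0.0304 in AT and at 0 in BL and SPL. B cell genes summed to 1.46 in AT, 4.56 in BL, 14.0 in SPL, 2.89 in BM and 21.1 in NBM, and T cell genes to 0.707 in AT, 1.56 in BL, 5.27 in SPL, 1.54 in BM and 40.2 in NBM. Endothelial genes, mainly Pecam1, summed to 13.9 FPKM in AT, 24.5 in BL, 9.87 in SPL, 11.4 in BM and 13.7 in NBM. The other 4 endothelial genes summed to 1.01 FPKM in AT, 0.554 in BL, 1.93 in SPL, 0.570 in BM and 0.888 in NBM. Without Pecam1, BL was thus the lowest group and SPL the highest. The part of these cells in the members' levels was not tested.

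Some members share sequence or ground with other genes. In GENCODE M21, 12 of 35 members overlap another protein-coding gene, among them Nop56, Dkc1, Nhp2, Wdr12, Bop1, Pes1 and Gnl3, and whether reads were counted by strand is not given in the sources used here. Reads from the overlap could belong to either gene. Npm1 also has processed pseudogene copies, and how reads that match several places were treated is not given either, so its level is less certain than those of single-copy members.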

How the data were processed

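The members and gene lists were chosen with earlier results of these data known. Per the labels' protocols, low-input libraries were made with Clontech SMARTer and Illumina Nextera XT chemistry from RNA isolated by Qiagen RNeasy Plus. Per the submitters' processing notes, Trimmomatic 0.32, Cufflinks 2.0.2, Cuffdiff and the mm10 build were used, and an aligner is not given in the sources used here. Deposited by the authors were FPKM values with bounds, estimated counts, log2 folds, a test statistic (a score) and p-values with q-values, each pooled over the 3 libraries of a group, so no test of replicates was computed here. Deposited q-values equalled a Benjamini-Hochberg adjustment over all 10 comparisons within 1.70e-06. Python 3.11.15 with scipy 1.17.1 was used. Other scalings shifted all folds of a comparison by 1 constant, kept the implied standard error and recomputed q over all 10 comparisons. Simulated data tested only the adjustment of q and the call, within 1 comparison at a time and without a shift.

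Every member is named with its levels. Folds are given for the called members with the largest folds, up to 6 per direction in AT against BM, BL against BM, BM against NBM and AT against BL, and up to 3 elsewhere. Of each other list, the 2 called genes with the smallest q are named. The highest and lowest folds of comparisons without calls, members not called, the Rrs1 and Naf1 levels, single marker genes, the snoRNAs shown and the Mybbp1a and Nop2 windows were chosen after their values were seen. Protein sequences were planned and were not used here, and the promoter of Npm1, also in that plan, was replaced by the next in order.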

Additional observations from a re-analysis of the deposited data

How the results depend on the processing

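No paired analysis was possible because each deposited column pools the 3 libraries of a group, and for the same reason no library could be left out in turn. The counts of members called in BL comparisons stayed within 1.5 times under each alternative run. For AT against BM LSC, 17 became 2 after centring, 4 at equal total counts, 2 at equal upper quartile and 4 at q below 0.01. For AT LSC against NBM, 15 became 2, 9, 2 and 8 in the same order, and for AT against SPL LSC, 23 became 6, 6, 5 and 11. The median of all genes lies below 0 in these comparisons, so centring raised every fold by a constant, as it did for BL against the same groups. No member reversed its called direction. A q adjusted within each comparison, a floor of 1 FPKM and leaving out genes whose FPKM differed between tables (257, none of them members; no entry merged genes) kept these counts within 1.5 times. The median member fold moved by more than its median standard error to -0.72 (centred) and -0.73 (upper quartile) in AT against BM, to -1.05 (upper quartile) in AT against SPL, to -1.40 (log2 of FPKM + 1) and -1.43 (upper quartile) in BL against BM, to -1.45 (FPKM + 1) in BL against NBM and to -1.55 (upper quartile) in BL against SPL. In BM against NBM it turned to -0.020 (total counts) and -0.0063 (upper quartile). Of the alternative values for single named folds, 148 kept their call and 19 lost it, 7 of them under centring.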

Other observations

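Gar1 stood far below the other core proteins of its own particle. The H/ACA core joins Dkc1, Gar1, Nhp2 and Nop10, yet Gar1 lay between 0.218 FPKM in BL and 0.544 in BM, while Nhp2 lay between 12.4 in BL and 74.02 in SPL, both scaled by gene length. The Gar1 levels rest on 12.8 estimated counts in SPL to 34.01 in BM. Utp20 was also low, at 0.279 FPKM in BL to 1.38 in SPL, on more counts, 188 in BL to 679 in NBM.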
